A study of Homo sapiens with 6 samples.

Results

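The aldo-keto reductases and aldehyde dehydrogenases are families of enzymes that clear reactive carbonyl compounds, and 10 of their genes were looked for by symbol in the expression table of a bladder cancer cell line. Of these 10, 7 had a row among the 13271 genes of the table: AKR1A1, AKR1B1, AKR1C1, AKR1C2, AKR1C3, ALDH1A3 and ALDH3A2. AKR1B10, ALDH3A1 and ALDH2 were not analysed here. RNA came from 5637, a human bladder cancer line, in 3 libraries transfected with a MAT1A plasmid (MAT1A) and 3 libraries transfected with an empty vector (control). Both groups were transfected by the lipid reagent at about 50% confluency, and RNA was taken 48 h later. MAT1A encodes the liver form of the enzyme that makes S-adenosylmethionine, the methyl donor of the cell. Whether each replicate was a culture of its own is not in the labels, so p-values describe library-to-library spread that may be technical. The transfected cells were a pool in which the share that took up plasmid is not given, and fewer cells with a transcript cannot be told apart from less of it per cell.

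Aldo-keto reductases use NADPH to reduce aldehydes and ketones to alcohols, and aldehyde dehydrogenases oxidise aldehydes to carboxylic acids. In epithelial cells the AKR1C genes are known targets of NRF2, a transcription factor that answers oxidative and electrophilic stress, and AKR1C enzymes also act on steroids and prostaglandins. ALDH1A enzymes make retinoic acid, a signal for epithelial differentiation, and their activity is widely used as a marker of stem-like tumour cells.

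Values below are reads on the CPM-like scale of the deposited table, in which 1 read is worth about 0.05, and the libraries held between 17.4 and 21.6 M reads. MAT1A itself stood at 1805, 1834 and 1917 in the MAT1A libraries, against 1.09, 0.253 and 4.54 in the control libraries. Epithelial genes were abundant in both groups: 14 of 16 urothelial and epithelial markers had a row, with summed values of 12309 to 13528 in MAT1A libraries and 11539 to 11828 in control libraries, while KRT20 and UPK3A had no row. Of the 13 tested, 5 rose and 1, GATA3, fell, and 3 rose without MAT1A library 1 or without control library 1, 2 or 3. Control library 1 stood apart in skeletal muscle and fibroblast genes: 13 of 14 muscle markers had a row, and their summed values were 47.6 to 98.7 in MAT1A libraries, against 489, 161 and 102 in control libraries 1, 2 and 3. Control libraries 2 and 3 thus also lay above all MAT1A libraries in this sum. For the muscle genes ENO3, ATP2A1 and MYH4, library 1 was the highest of the MAT1A group too. ATP2A1 stood at 13.8, 5.81 and 5.13 in MAT1A and 80.4, 26.7 and 14.9 in control libraries 1, 2 and 3. Of the 13 muscle markers tested, 12 were called lower in MAT1A, 9 without control library 1 or without MAT1A library 3, and 2 with DESeq2 on recovered reads. Fibroblast markers (5 of 9 with a row) summed to 176 to 188 in MAT1A libraries, against 320, 218 and 203 in control libraries 1, 2 and 3. Of 4 tested, 1, COL1A1, was called lower; 4 were with the replicate block, 2 without MAT1A library 2 or control library 2 or 3, and 0 with DESeq2. The part of these markers in the results below was not tested, and a call of a member that is lost without control library 1 is given with its value. The only endothelial marker with a row, of 6, lay at 0.755 to 1.13 in MAT1A and 0.579 to 0.918 in control libraries, and the only leukocyte marker, of 9, at 0.0466 to 0.916 in MAT1A and 0.505 to 1.66 in control libraries.

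The AKR1C genes lie side by side on chromosome 10 and are close copies, which matters for how their reads can be told apart. On GRCh38, AKR1C1 lies at positions 4963253 to 4983283 on the plus strand, AKR1C2 at 4987400 to 5018031 on the minus strand and AKR1C3 at 5035354 to 5107686 on the plus strand (GENCODE 29). Over 972 coding bases AKR1C1 and AKR1C2 differed at 19 positions, an identity of 98.0%, whereas AKR1C3 differed from AKR1C1 at 79 and from AKR1C2 at 85, identities of 91.9% and 91.3%. The stretch of 60 coding bases with the most differences between AKR1C1 and AKR1C2 held 10 of their 19, all in the second exon. It is shown because reads from it can tell AKR1C1, AKR1C2 and AKR1C3 apart. Other genes were not compared over this stretch. Capitals mark the 15 positions at which the 3 genes are not all alike (coding bases 103 to 162, GENCODE 29 on GRCh38):
AKR1C1, chr10:4965932-4965991, plus strand: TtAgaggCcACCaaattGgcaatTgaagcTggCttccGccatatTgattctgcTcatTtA
AKR1C2, chr10:5001604-5001663, minus strand: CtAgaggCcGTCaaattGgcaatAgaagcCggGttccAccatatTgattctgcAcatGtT
AKR1C3, chr10:5096428-5096487, plus strand: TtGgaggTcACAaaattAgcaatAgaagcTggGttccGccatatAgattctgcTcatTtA

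Outside such stretches much of the sequence was common. Of the distinct windows of 36 bases, the read length given in the labels, 45.3% of those in AKR1C2 transcripts and 33.6% of those in AKR1C1 transcripts were also found in transcripts of another gene on either strand. AKR1C1 and AKR1C2 shared 2911 windows with each other, while AKR1C3 shared 6.12% of its windows with any other gene. The windows of ALDH1A3 were shared at 25.6%, 25.1% with AC015712.2, an antisense transcript that overlaps 1585 of its exonic bases and has no row in the table. The shares were 11.7% for AKR1B1, 4.96% for AKR1A1 and 0.669% for ALDH3A2. All these shares are over the exons of all annotated transcripts. Over the 972 coding bases alone, 63.0% of 36-base windows were identical between AKR1C1 and AKR1C2. Between AKR1C3 and AKR1C1 it was 20.8%, and between AKR1C3 and AKR1C2 22.0%. The kit does not mark strand, and the counting of reads that fit several places is not described. Values of AKR1C1 and AKR1C2 are therefore uncertain between these copies, and to a lesser degree those of AKR1C3.

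**Figure D1:**
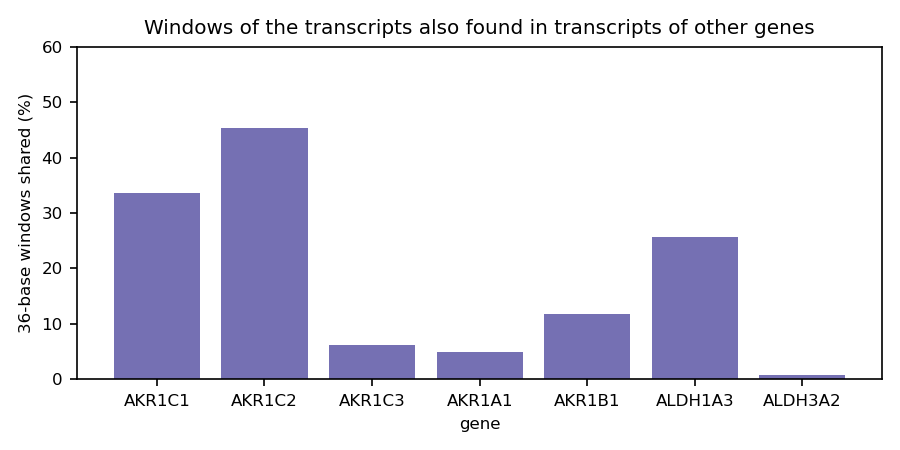
Share (%) of the distinct 36-base windows of each gene's GENCODE 29 transcripts that also occur in transcripts of other genes, as 1 bar per gene. AKR1C2 (45.3%) and AKR1C1 (33.6%) have the highest shares, and ALDH3A2 the lowest at 0.669%.

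The promoters of the AKR1C genes are shown because the 3 transcripts moved in the same direction, below. RefSeq (GRCh38.p14) gives start sites for all 7 genes with a row, including 2 for AKR1C3, and the 250 bases before each AKR1C start follow, 5′ to 3′ on the gene's own strand. Capitals mark the longest run of bases found in all 4 of these windows, 12 bases long:
AKR1C1, chr10:4963165-4963414, plus strand: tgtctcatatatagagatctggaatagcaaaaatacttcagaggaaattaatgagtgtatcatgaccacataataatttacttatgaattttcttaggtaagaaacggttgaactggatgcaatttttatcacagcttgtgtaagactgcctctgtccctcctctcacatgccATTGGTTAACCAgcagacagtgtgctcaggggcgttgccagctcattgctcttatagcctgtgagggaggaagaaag
AKR1C2, chr10:5003858-5004107, minus strand: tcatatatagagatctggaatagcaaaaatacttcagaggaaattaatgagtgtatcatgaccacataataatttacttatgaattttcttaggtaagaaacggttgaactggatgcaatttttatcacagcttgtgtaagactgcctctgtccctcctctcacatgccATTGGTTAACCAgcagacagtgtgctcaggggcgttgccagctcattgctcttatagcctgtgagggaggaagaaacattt
AKR1C3, chr10:5048531-5048780, plus strand: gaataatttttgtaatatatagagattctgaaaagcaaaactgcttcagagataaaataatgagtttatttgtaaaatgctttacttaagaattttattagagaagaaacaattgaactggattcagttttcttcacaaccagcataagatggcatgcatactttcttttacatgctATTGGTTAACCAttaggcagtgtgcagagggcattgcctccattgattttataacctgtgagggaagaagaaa
AKR1C3, chr10:5094164-5094413, plus strand: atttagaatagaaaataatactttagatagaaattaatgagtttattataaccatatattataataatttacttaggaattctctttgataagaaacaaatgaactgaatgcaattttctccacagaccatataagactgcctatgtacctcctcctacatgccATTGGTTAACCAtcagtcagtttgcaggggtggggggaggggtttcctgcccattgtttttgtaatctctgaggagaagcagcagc

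The AKR1C1 and AKR1C2 windows shared an unbroken run of 245 of 250 bases. The run in capitals begins with the reverse complement of CCAAT, which was searched for on both strands and was also in 32.0% of all 35116 promoter windows of this length. The core of the antioxidant response element, to which NRF2 binds, was searched for on both strands as TGACNNNGC and as TGAGNNNGC. TGACNNNGC matched in none of the windows of the 7 genes (10.9% of all promoter windows hold it). TGAGNNNGC matched on the opposite strand as tgagctggc in AKR1C1, at bases -41 to -33 from the start site, and in AKR1C2, at bases -45 to -37, and as tgagagcgc in a promoter of ALDH3A2 (14.8% of all windows hold it). A match is a description of these letters and not a binding site, and windows without a match leave more distant elements unexamined.

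Of the 7 genes, 5 were higher in the MAT1A libraries (limma, Benjamini-Hochberg adjusted p under 0.05 over the 12866 genes tested) and none was lower. AKR1C1, AKR1C2 and AKR1C3 rose by 79.6%, 63.5% and 42.7% in group means, ALDH3A2 by 11.5% and ALDH1A3 by 9.58%. AKR1A1 and AKR1B1 were not called. Among all genes tested, 4.01% were called higher and 7.4% lower. The calls of AKR1C1 and AKR1C2 are not independent, because reads of these copies are uncertain between them. To a lesser degree this holds for AKR1C3 too. The members were also chosen with earlier results of these data known. The median log2 change was 0.15 over the 7 genes and 0.004 over all genes tested. A log2 change is the MAT1A minus the control mean of log2(value + 1), a scale that compresses the changes of weakly expressed genes. The 3 MAT1A and 3 control values did not overlap for 6 of the 7 genes, all 6 higher in MAT1A, whereas 30.3% of all genes tested had no overlap and 14.7% were higher with none. An exact two-sided permutation test over 3 against 3 libraries cannot go below p = 0.1, which is what it gave for those 6 genes.

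**Figure D2:**
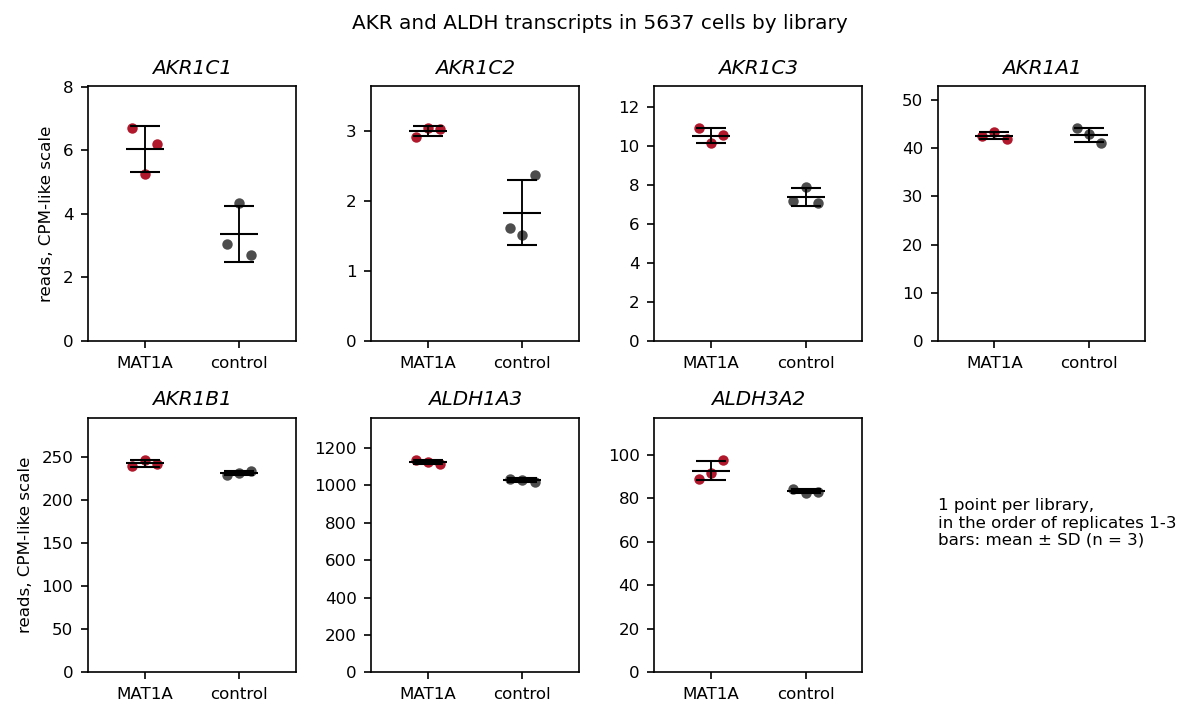
Values of the 7 genes in reads on the CPM-like scale (linear axes from 0), with 1 point per library and mean ± SD over 3 libraries, MAT1A on the left and control on the right of each panel. The AKR1C1, AKR1C2 and AKR1C3 points of the MAT1A libraries all lie above the control points, while the AKR1A1 points overlap between 41.1 and 44.1.

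AKR1C1 encodes an enzyme that reduces progesterone to a less active product, and it had the largest change of the 7 genes. Its values were 6.68, 5.24 and 6.20 in MAT1A libraries 1, 2 and 3 (124, 102 and 133 reads), against 3.04, 4.35 and 2.70 in control libraries 1, 2 and 3 (53, 86 and 56 reads). The lowest MAT1A library lay above the highest control library. Means were 6.04 ± 0.734 in MAT1A and 3.36 ± 0.868 in control libraries (SD, n = 3 each), a log2 change of 0.70 with a standard error of 0.13 (limma adjusted p = 0.00184). Counting error alone would give SDs of 0.553 and 0.418 at these depths. AKR1C1 was called whichever single library was left out, and edgeR's test on reads recovered from the table gave a log2 change of 0.84 (adjusted p = 0.00283).

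AKR1C2 encodes an enzyme that inactivates the androgen dihydrotestosterone. Its values were 2.91, 3.03 and 3.03 in the MAT1A libraries (54, 59 and 65 reads), against 1.61, 1.52 and 2.36 in the control libraries (28, 30 and 49 reads). The MAT1A libraries lay above the control libraries, of which the third was the highest. Counting error alone would give SDs of 0.389 in MAT1A and 0.307 in control libraries. The MAT1A values thus lay closer together than counting error gives, and their SD is no measure of precision. The means of 2.99 ± 0.0697 in MAT1A and 1.83 ± 0.466 in control libraries (SD, n = 3 each) differed by 0.51 ± 0.13 (SE) on the log2 scale (limma adjusted p = 0.0154). This is the least secure of the AKR1C calls: it was lost without control library 1 (adjusted p = 0.0719), without control library 2 (0.0669) and with DESeq2 on recovered reads (0.0774). With fewer than 70 reads in every library the size also depends on the pseudocount, the log2 change being 0.71 with 0.1 added to each value and 0.23 with 5 added, and for AKR1C1 0.85 and 0.40.

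AKR1C3 makes testosterone from androstenedione and prostaglandin F from its precursor, and of the 3 copies it shared the fewest sequence windows with other genes. Its values were 10.9, 10.1 and 10.5 in the MAT1A libraries (202, 197 and 226 reads), against 7.17, 7.88 and 7.05 in the control libraries (125, 156 and 146 reads). The groups stood well apart, by more than the spread within either. Counting error alone would give SDs of 0.730 in MAT1A and 0.619 in control libraries. The SDs found were smaller in both groups, so this spread is no measure of precision. Means were 10.5 ± 0.382 in MAT1A and 7.37 ± 0.451 in control libraries (SD, n = 3 each), which is 0.46 ± 0.08 (SE) on the log2 scale (limma adjusted p = 0.00113), and the highest adjusted p with a library left out was 0.00874. Added over the 3 copies, the values were 20.5, 18.4 and 19.8 in MAT1A libraries and 11.8, 13.7 and 12.1 in control libraries. Reads assigned to the wrong copy among the 3 do not alter this sum. Reads left uncounted because they fit several places would be missing from it. So would any reads assigned to AKR1C4, which has no row and shares windows with all 3 copies. The ratio of the group means of this sum was 1.56. AKR1C3 made up 53.2% to 55.0% of the sum in MAT1A libraries and 57.4% to 60.7% in control libraries.

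The remaining aldo-keto reductases stood at higher levels and were not called. AKR1A1, on chromosome 1 at 45550543 to 45570049, encodes the broad aldehyde reductase of most tissues. Its values were 42.4, 43.4 and 41.9 in the MAT1A libraries and 44.1, 42.9 and 41.1 in the control libraries. The groups overlapped, with a log2 change of -0.003 and a 95% interval of -0.10 to 0.09 (limma adjusted p = 0.973). AKR1B1, on chromosome 7 at 134442350 to 134459284, encodes aldose reductase, which turns glucose into sorbitol in the polyol pathway. Its values were 239.7, 246.9 and 242 in the MAT1A libraries and 228.9, 232 and 234.2 in the control libraries. The MAT1A values all lay above the control values, by 4.82% in the means, and the log2 change of 0.07 did not pass (95% interval 0.005 to 0.13; limma adjusted p = 0.159, and 0.0824 with the replicate number as a block).

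ALDH1A3, on chromosome 15 at 100877714 to 100916626, oxidises retinaldehyde to retinoic acid and was the most abundant of the 7 genes. Its values were 1135, 1126 and 1115 in the MAT1A libraries (21063, 21914 and 23919 reads), against 1036, 1028 and 1017 in the control libraries (18050, 20343 and 21082 reads). The gap between the groups was several times the spread within them, although the change was small. Means of 1126 ± 10.1 in MAT1A and 1027 ± 9.35 in control libraries (SD, n = 3 each) differed by 0.13 ± 0.03 (SE) on the log2 scale (limma adjusted p = 0.00504). It was called with each library left out in turn, with an adjusted p of 0.0499 at the highest. Reads of the antisense transcript AC015712.2 cannot be told from those of ALDH1A3 over the exonic bases they share.

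ALDH3A2, on chromosome 17 at 19648136 to 19677598, encodes the fatty aldehyde dehydrogenase of the endoplasmic reticulum. Its values were 89.1, 91.6 and 97.6 in the MAT1A libraries and 84.3, 82.6 and 82.8 in the control libraries. The control libraries lay within a narrow range below all MAT1A libraries, of which the third was the highest. The control SD of 0.905 was below the 2.08 that counting error alone would give, so the narrow range is no measure of precision. The log2 change was 0.15 ± 0.04 (SE; limma adjusted p = 0.0178). The call was lost without MAT1A library 3 (adjusted p = 0.0592) and without control library 1, 2 or 3 (0.0513, 0.0598 and 0.079).

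Levels were also compared per kilobase of GENCODE 29 exon. The exon length used joins the exons of all annotated transcripts of a gene, and can exceed that of the transcripts present. It was 8765 bases for AKR1C1, 6461 for AKR1C2, 4532 for AKR1C3 and 3121 for AKR1A1. Levels, ranks and family shares of different genes can therefore be set side by side only roughly. The order was the same in MAT1A and control libraries for all but a single pair of neighbours. ALDH1A3 led with 195 ± 1.75 in MAT1A and 178 ± 1.62 in control libraries, above 98.8% of all genes of the table on this scale, and AKR1B1 followed with 66.4 ± 1.00 in MAT1A and 63.3 ± 0.728 in control libraries. ALDH3A2 and AKR1A1 came next and differed little, at 14.4 ± 0.678 and 13.6 ± 0.238 in MAT1A libraries and at 12.9 ± 0.140 and 13.7 ± 0.477 in control libraries (SD, n = 3 each). AKR1C3 stood at 2.32 ± 0.0843 in MAT1A and 1.63 ± 0.0996 in control libraries. AKR1C1 and AKR1C2 were lowest, at 0.689 ± 0.0837 and 0.463 ± 0.0108 in MAT1A and at 0.384 ± 0.0990 and 0.283 ± 0.0721 in control libraries. The last pair lay within their spread of each other in the control libraries. ALDH1A3 made up 68.4% ± 0.355 of the per-kilobase level summed over the 12 aldehyde dehydrogenase genes of the table in MAT1A libraries, and 67.5% ± 0.406 in control libraries. AKR1B1 made up 64.1% ± 1.13 of the sum over 6 aldo-keto reductase genes in MAT1A libraries and 63.8% ± 0.837 in control libraries.

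No other gene of either family was called in the fit reported. Of 10 further aldo-keto reductase family genes listed, 4 were tested and none passed. Of 15 further aldehyde dehydrogenases, 10 were tested and none passed. With the replicate block, 1 of these 10 rose, without control library 2, 1 rose, and without MAT1A library 1, 1 fell. AKR7A2, an aflatoxin aldehyde reductase, averaged 35.8 ± 3.33 in MAT1A and 35.6 ± 0.778 in control libraries (log2 change 0.003, limma adjusted p = 0.98). KCNAB2, a potassium channel subunit with an aldo-keto reductase fold, averaged 3.71 ± 0.689 in MAT1A and 4.02 ± 0.657 in control libraries. ALDH18A1, which makes a precursor of proline, averaged 94.8 ± 3.26 in MAT1A and 90.1 ± 1.30 in control libraries (log2 change 0.07, limma adjusted p = 0.238), and ALDH9A1 averaged 58.5 ± 1.87 in MAT1A and 60.7 ± 1.96 in control libraries (-0.05, adjusted p = 0.457). Some uncalled aldehyde dehydrogenases had log2 changes as large as that of ALDH1A3. These were ALDH1B1 (0.13, limma adjusted p = 0.0789), ALDH4A1 (0.13, adjusted p = 0.361) and ALDH3B1 (0.18, adjusted p = 0.21). Of these, only ALDH3B1 also exceeded the change of ALDH3A2 (0.15). ALDH6A1 went the other way (-0.30, adjusted p = 0.15), as did ALDH9A1. The median log2 change was -0.04 over the 4 tested aldo-keto reductase family genes and 0.08 over the 10 tested aldehyde dehydrogenases.

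**Figure D3:**
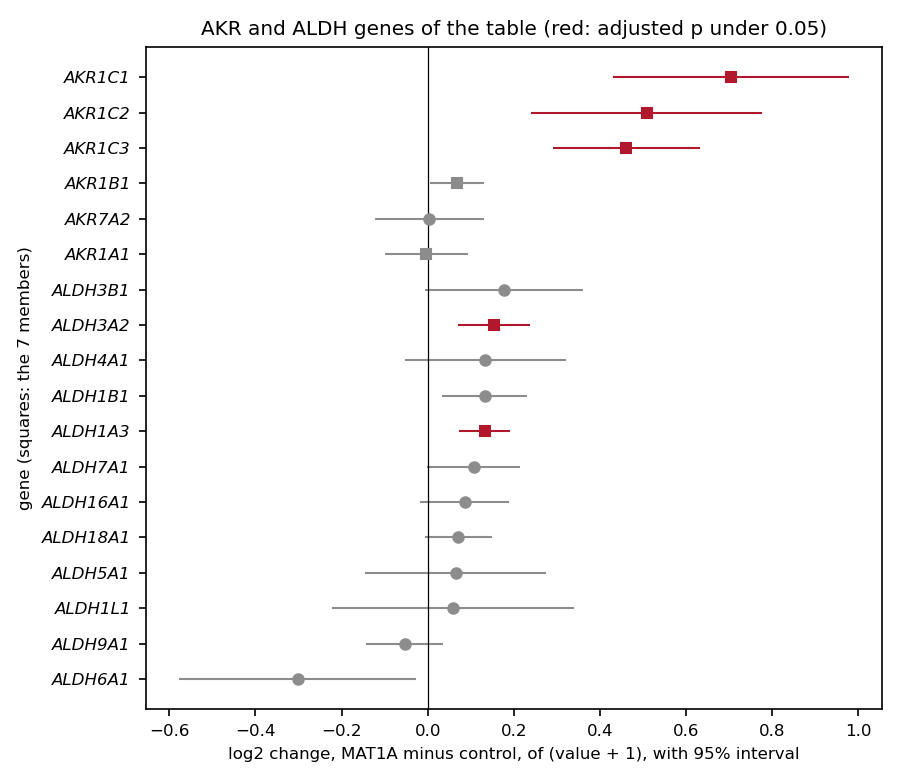
Log2 change of (value + 1), MAT1A minus control, with the 95% limma interval, for the 6 aldo-keto reductase and 12 aldehyde dehydrogenase genes with AKR or ALDH symbols in the table; squares are the 7 members and red marks adjusted p under 0.05. The AKR1C genes lie farthest to the right, at 0.46 to 0.70.

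Among other enzymes that reduce carbonyls or oxidise alcohols, 2 of 19 tested genes rose and 0 fell (3 and 1 with the replicate block). NQO1, a quinone reductase, rose to 247 ± 9.66 in MAT1A libraries, against 198 ± 4.12 in control libraries (SD, n = 3 each; log2 change 0.31, limma adjusted p = 9.6e-06). CBR1, a carbonyl reductase that also acts on prostaglandins, rose to 50.6 ± 0.685 in MAT1A, against 45.5 ± 1.93 in control libraries (log2 change 0.15, limma adjusted p = 0.0406). The call of CBR1 was lost in each of the 6 fits with a library left out.

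All 31 genes of a list of NRF2 and its targets were tested; 15 rose and 1 fell, and the list's median log2 change was 0.13, against 0.15 for the 7 genes and 0.004 for all genes tested. The list was written with earlier results of these data known, and NQO1 belongs also to the previous list, so its count is not independent support. Besides NQO1, the rises with the smallest p were PRDX1, a peroxiredoxin (487 ± 8.37 in MAT1A and 423 ± 7.89 in control libraries, log2 change 0.20), and PIR, which encodes pirin (13.3 ± 0.309 in MAT1A and 8.96 ± 0.737 in control libraries, 0.52). NFE2L2, the gene of NRF2 itself, had a log2 change of -0.05 and was not called (limma adjusted p = 0.416). OSGIN1, an oxidative stress response gene, fell to 7.71 ± 1.11 in MAT1A, against 10.2 ± 0.446 in control libraries (log2 change -0.37, adjusted p = 0.0169), and lost its call without control library 2, control library 3 or MAT1A library 2. Without control library 1, 11 of the 31 rose and 1 fell.

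Genes of the pathways in which the members act were mostly not called, as was true of all genes tested (11.4% called in either direction). Whether the lists differ from that share was not tested. For ALDH1A3, 1 of 14 tested genes of retinoid metabolism and response rose and none fell (2 and 1 with the replicate block). That gene was RXRA, a partner of the retinoic acid receptors, at 203 ± 10.9 in MAT1A and 182 ± 4.24 in control libraries (log2 change 0.16, limma adjusted p = 0.0118), and its call was lost without control library 3 (adjusted p = 0.0796). For AKR1B1, none of 5 tested genes of the tonicity response and polyol pathway passed (1 fell with the replicate block): SLC6A6, the taurine transporter gene, averaged 74.5 ± 3.77 in MAT1A and 69.4 ± 3.03 in control libraries, and SLC5A3, the inositol transporter gene, 69.1 ± 8.69 in MAT1A and 68.5 ± 2.37 in control libraries.

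For AKR1C3, 3 of 9 tested genes of prostaglandin synthesis and breakdown rose and none fell. PTGES, the inducible prostaglandin E synthase, rose to 131 ± 5.45 in MAT1A, against 90.5 ± 4.64 in control libraries (SD, n = 3 each; log2 change 0.53, limma adjusted p = 2.3e-07). CBR1 was the second, and PLA2G4A, the phospholipase that frees arachidonic acid, the third (9.18 ± 0.888 in MAT1A and 7.34 ± 0.261 in control libraries, log2 change 0.29, adjusted p = 0.0443). PLA2G4A lost its call without any library but MAT1A 2, and of the 9 genes 1 was called with any of the other 5 libraries left out (2 without MAT1A 2) and 1 with DESeq2.

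The aryl hydrocarbon receptor, which senses planar aromatic compounds and controls NQO1 together with NRF2, had mostly lower genes among those called: 3 of 8 tested genes fell and 1, NQO1, rose. Of the genes not called, AHRR, UGT1A6 and CYP1B1 had log2 changes of 0.18, 0.18 and 0.14, and ARNT of -0.08. The median log2 change of the list was 0.03. CYP1A1, a cytochrome P450 of xenobiotic oxidation, fell to 23.3 ± 0.784 in MAT1A libraries, against 64.9 ± 3.44 in control libraries (SD, n = 3 each; log2 change -1.44, limma adjusted p = 5.3e-12). TIPARP, a repressor of the receptor, fell to 126 ± 0.474 in MAT1A, against 170.0 ± 4.46 in control libraries (-0.43, adjusted p = 9.5e-08), and AHR, the receptor gene, to 22.4 ± 0.171 in MAT1A, against 26.2 ± 0.642 in control libraries (-0.21, adjusted p = 0.0157; 0.0764 without control library 1).

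**Figure D4:**
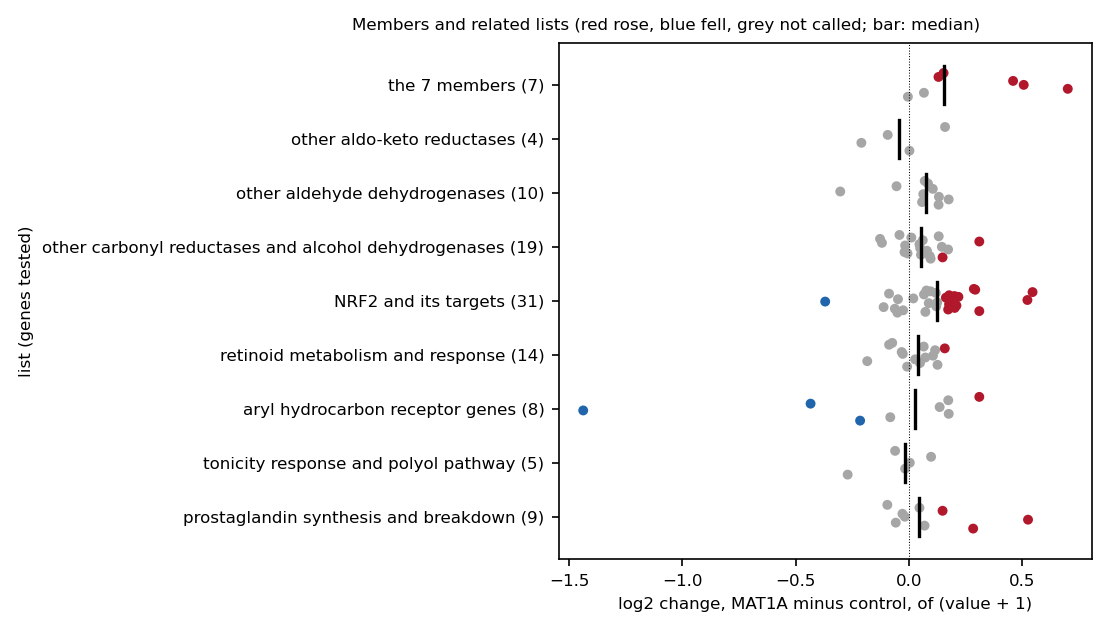
Log2 change of (value + 1), MAT1A minus control (x axis), of each tested gene of the 7 members and of 8 related lists; red points rose, blue points fell, grey points were not called, and the black bar is the median. Medians run from -0.04 for other aldo-keto reductases to 0.15 for the members, and the lowest point is CYP1A1 at -1.44.

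The genes whose pattern over the 6 libraries was most like that of AKR1C1 were sought among the 10551 other tested genes with a mean of at least 5, by the root mean square difference of log2(value + 1) after each gene was centred on its own mean. They share 2 groups of libraries, so the likeness is a description. The 5 nearest were LOXL4 (difference 0.16), CYP4F3 (0.17), SPRR2D (0.17), AKR1C3 (0.18) and CYP4F11 (0.18). LOXL4, a lysyl oxidase-like enzyme, averaged 7.64 ± 0.207 in MAT1A and 4.61 ± 0.729 in control libraries. CYP4F3 and CYP4F11, cytochrome P450 genes of fatty acid oxidation, averaged 9.83 ± 0.642 and 7.83 ± 1.19 in MAT1A libraries, against 6.78 ± 0.543 and 5.33 ± 0.314 in control libraries. SPRR2D, a small proline-rich protein gene of the cornified envelope, averaged 92.5 ± 2.27 in MAT1A and 56.7 ± 1.69 in control libraries. AKR1C3 was the nearest of the members with a mean of at least 5. AKR1C2, with a lower mean, was not compared.

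Across the ways of processing tried, no member changed direction while called, and 5 of the 7 were called with edgeR, against 3.75% of all genes called higher by it, and with the replicate block, against 7.57%. DESeq2 called 4, against 2.48% of all genes. With control library 1 left out, 3 of the 7 were called (AKR1C1, AKR1C3 and ALDH1A3), and 230 of all 12742 genes tested were called higher. The same 3 were called with control library 2 left out, where 366 of 12741 genes were called higher. With all 6 libraries, 516 of 12866 genes were called higher.

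**Figure D5:**
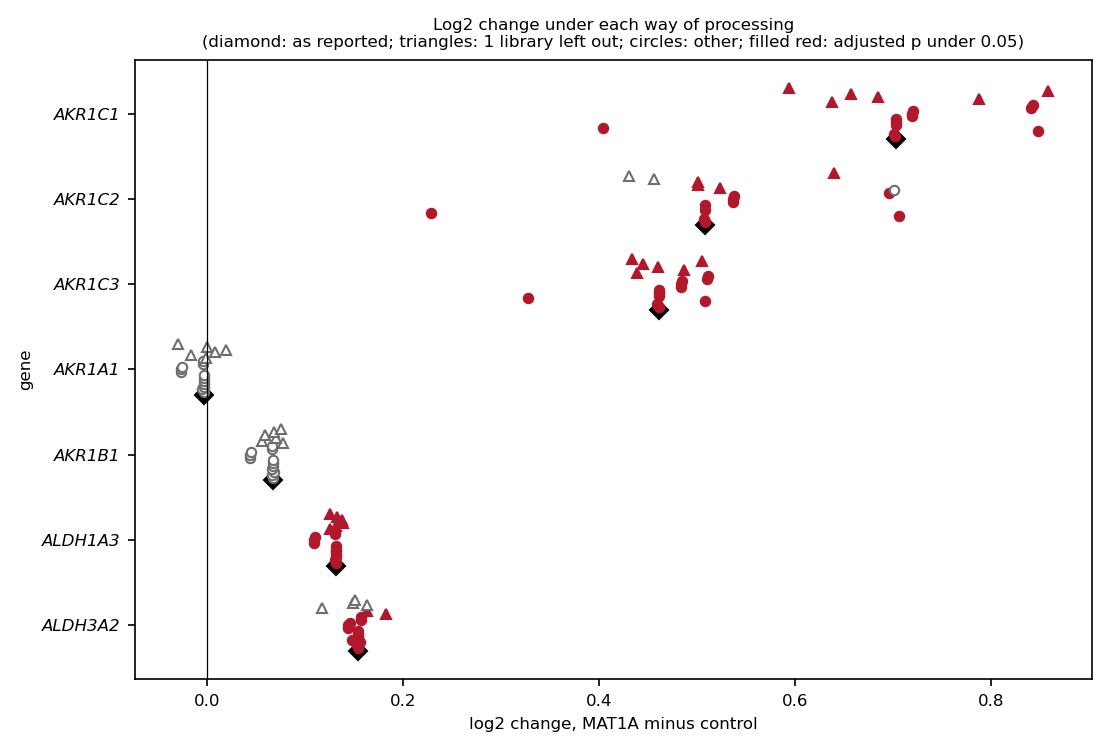
Log2 change of each of the 7 genes (MAT1A minus control, x axis) under each way of processing; diamonds are the values reported, triangles leave out 1 library, circles are other alternatives, and filled red symbols have an adjusted p under 0.05. AKR1C1, AKR1C3 and ALDH1A3 are filled throughout, and AKR1A1 straddles 0.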

How the data were processed

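RNA of 6 libraries was sequenced, 3 with the MAT1A plasmid and 3 with the empty vector, grouped by their titles. The authors deposited a signal per gene, its reads scaled close to CPM. Alignment by STAR 2.6.0c to hg38 and the use of featureCounts and edgeR are in the submitters' processing notes; annotation and settings are not given. Every value was a whole multiple of a step per column to within 0.001 reads (100% of values), taken as 1 read, so 17.4 to 21.6 M reads per library could be recovered; 3 reads are worth 0.140 to 0.172, and counting errors cover counting alone, because PCR copies were not told apart. No row summed to under 25 reads, so low rows had been removed before deposit.

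limma 3.58.1 (R 4.3.3) with an intensity trend was run on log2(value + 1) for the 12866 genes with at least 1 in at least 3 libraries, with no block, and adjusted by Benjamini-Hochberg over all of them; the test planned for raw counts, edgeR's quasi-likelihood test, became an alternative because the table holds scaled values. edgeR 4.0.16 and DESeq2 1.42.0 were run on the recovered reads (in 3 libraries the smallest value above 0 came to 2 or 5 reads, so there the step rests on gaps between values), and all were tested on simulated data. Members, 13 gene lists and tests were chosen with earlier results of these data known. Named genes are the members, MAT1A, up to 3 called genes per direction and list by p (2 by mean where none was called) and 5 neighbours of AKR1C1; NFE2L2 was added after its value was seen. Libraries of a group differed by more than sampling noise (chi-square per degree of freedom 1.87 to 4.46). For single genes the SD of a group could still lie below counting error, and is then no measure of precision. Examples in MAT1A libraries are TIPARP (0.474 against 2.52) and AHR (0.171 against 1.07). Same-numbered libraries deviated together (correlations 0.25, 0.18 and 0.19), which meets the criterion set for pairing, although no label states one; the results reported are unblocked, and the block is an alternative. Exon lengths come from GENCODE 29, where 13211 of 13271 symbols matched.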

Additional observations from a re-analysis of the deposited data

How the results depend on the processing

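The 7 members stayed on their side of the threshold in 82 of 83 comparisons with another scaling, pseudocount, filter, block, length and GC correction or count test (AKR1C2 lost its call with DESeq2), and in 36 of 42 with a library left out. No called member changed direction; AKR1A1, not called, had a log2 change of -0.003 that was 0.008 without MAT1A library 3 and 0.02 without control library 1. Of 30 other named genes, the calls were the same in 354 of 359 and 164 of 180. The stricter filter of at least 5 left AKR1C2 untested. The number of members called ranged from 3 to 5 with a library left out, 3 without control library 1 or 2. Of all genes, 1468 were called; the count was 2310 with the replicate block (974 higher), 2483 with the block plus the length and GC correction, 957 with DESeq2, and 749 to 1656 with a library left out (782 without control library 1, 749 without control library 3). The block changed no member's call. The correction with library medians set back was chosen after seeing the data. The cause of these differences was not tested. Below about 70 reads per library, as for AKR1C2, counting error limits precision.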
